A study of Mus musculus with 6 samples.

Results

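Pre-mRNA splicing is carried out by the spliceosome, and the 38 genes described here code for its core proteins: the Sm and LSm rings, the proteins particular to the U1, U2, U5 and U4/U6 small nuclear ribonucleoproteins (snRNPs), the SF3a and SF3b complexes, both U2AF subunits and Prpf19. They were chosen by gene symbol from what is known of each particle, by a rule that uses no measured value, but with earlier results of these data known. All 38 were found among the 47069 genes of the count table, and all 38 were among the 14165 genes that passed a filter on low counts and were tested. The table comes from RNA-seq of primary myoblasts, the progenitors of muscle fibers, isolated from skeletal muscle of mdx mice (males on a C57BL/10 background, 10 weeks old where the study's methods give an age, with none stated for the cell donors alone) by sorting for Itga7 and Itgb1 and against Sca-1, CD45, CD31 and CD11b. Every sample carries the mdx mutation, which removes dystrophin and models Duchenne muscular dystrophy, so no wild-type cells are part of the comparison. The cells received either vehicle, DMSO in an aqueous buffer and named Control in the sample records, or 10 µM PSB-KD107, a synthetic agonist of the receptor Gpr18. The study's methods describe a growth medium with fetal bovine serum and FGF2 and a low-serum differentiation medium. They do not state which of them the sequenced cells were in. The sample records give 2 days of treatment and the study's methods an overnight treatment. There were 3 libraries per group, numbered 1, 2 and 4 in the table and 1, 2 and 3 in the sample records, so those numbered 4 were assigned to a group by name but to no single record, and the study's methods give 3 different mice as the source of the cells without tying a library to a mouse, so the p-values measure the spread between these libraries.

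A total of 30917613 to 48756794 counts per library was assigned to genes, and 3 counts, taken as the floor of detection, correspond to 0.0596 to 0.0962 CPM (counts scaled to the normalised library total). This floor covers counting error only. The myoblast markers summed to 6135 to 6831 CPM in the vehicle and 6076 to 6535 CPM in the PSB-KD107 libraries, whereas those of leukocytes, endothelium, fibro-adipogenic cells and glia each summed to at most 9.85 CPM in any library, with Adgre1 and Lum at 0 counts in all 6. The 9.85 CPM was the fibro-adipogenic sum of PSB-KD107 library 4, where Ly6a, which codes for the Sca-1 sorted against, was at 8.36 CPM (0.155 to 1.29 CPM elsewhere). Of the 8 myoblast markers, Pax7, which marks muscle stem cells, was the only one without overlap, at 49.9 to 68.8 CPM in the vehicle and 26.8 to 35.1 CPM in the PSB-KD107 libraries, whereas Myf5 was at 3.57 to 21.3 CPM and 4.23 to 40.9 CPM. Differentiated muscle genes were abundant in both groups, at 28869 to 35537 CPM summed over 6 genes in the vehicle and 24227 to 27145 CPM in the PSB-KD107 libraries. Myh3, embryonic myosin, made up much of this sum (17158 to 18255 CPM and 11842 to 14589 CPM). Without it the sums overlapped, at 10901 to 17282 CPM and 9638 to 15303 CPM. Of the 6 genes, 3 had every PSB-KD107 library below every vehicle library, a pattern found in 6.59% of all genes tested. These were Myh3, Myog (2042 to 2203 CPM and 1175 to 1726 CPM) and Actn2 (2116 to 2345 CPM and 1753 to 2084 CPM). Myh8, Ckm and Acta1 overlapped between the groups. Proliferation markers summed to 73.6 to 218.0 CPM and 79.3 to 141.4 CPM, respectively. The part of these differences in the results was not tested. In RNA of whole cultures, fewer cells of a type and less RNA per cell cannot be told apart.

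An intron is removed after U1 binds its 5' end and U2 binds its branch site, with U2AF reading the 3' end and SF3a and SF3b fixing U2 on the RNA. The U4/U6.U5 tri-snRNP then joins, U1 and U4 leave, and the Prp19 complex stabilises the catalytic core. U1, U2, U4 and U5 RNAs each carry a ring of Sm proteins, loaded in the cytoplasm, while U6 RNA carries the LSm2-8 ring, which forms in the nucleus. Exchange of Lsm8 for Lsm1 gives the LSm1-7 ring, which acts in cytoplasmic mRNA decay. Many muscle transcripts are alternatively spliced as myoblasts differentiate, and the same core machinery serves all of them.

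None of the 38 genes passed an adjusted p of 0.05 in edgeR's quasi-likelihood test, which called 0 of the 14165 genes tested (0% of them). The smallest adjusted p among the 38 was 0.361, for Lsm6, by that test with Benjamini-Hochberg adjustment. At an unadjusted p under 0.05, 5 genes were lower with PSB-KD107 (Lsm6, Lsm3, Snrpd1, Snrnp40 and Snrpb2) and 0 were higher, where 2.93% of all genes tested were lower and 6.47% higher. DESeq2 called 1 of the 38, Lsm6, lower, with 0.93% of the genes that it adjusted called lower and 2.48% higher, and 7 of the 38 were lower at its unadjusted p under 0.05, where 4.33% of all genes were. The limma-voom test called 0 of the 38 and 0 of the 14165.

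The fitted log2 fold change was below 0 for 36 of the 38 genes, against 50.1% of all genes tested. Prpf3 (0.11) and Sf3b2 (0.0094) were the exceptions. The median of the 38 was -0.16, a difference of -10.4%, beside a median of -0.00074 over all genes, whose middle 50% lay between -0.18 and 0.23. In 12 of the 38 genes every PSB-KD107 library lay below every vehicle library, a pattern found in 6.59% of all genes tested, and the reverse held for 0 of the 38 and for 9.2% of all genes tested. Genes of one complex are not independent replicates, so no test was made of these counts. The 95% interval of the log2 fold change stayed within a 2-fold difference in either direction for 35 of the 38 genes, all but Lsm3, Lsm5 and Lsm6, and excluded a decrease of 1.5-fold for 25 of them, where 55.9% of all genes did so. Summed over the 38 genes, the level was 3470, 3690 and 3986 CPM in vehicle libraries 1, 2 and 4, and 3377, 3612 and 3180 CPM in PSB-KD107 libraries 1, 2 and 4. These sums overlapped between the groups.

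**Figure D1:**
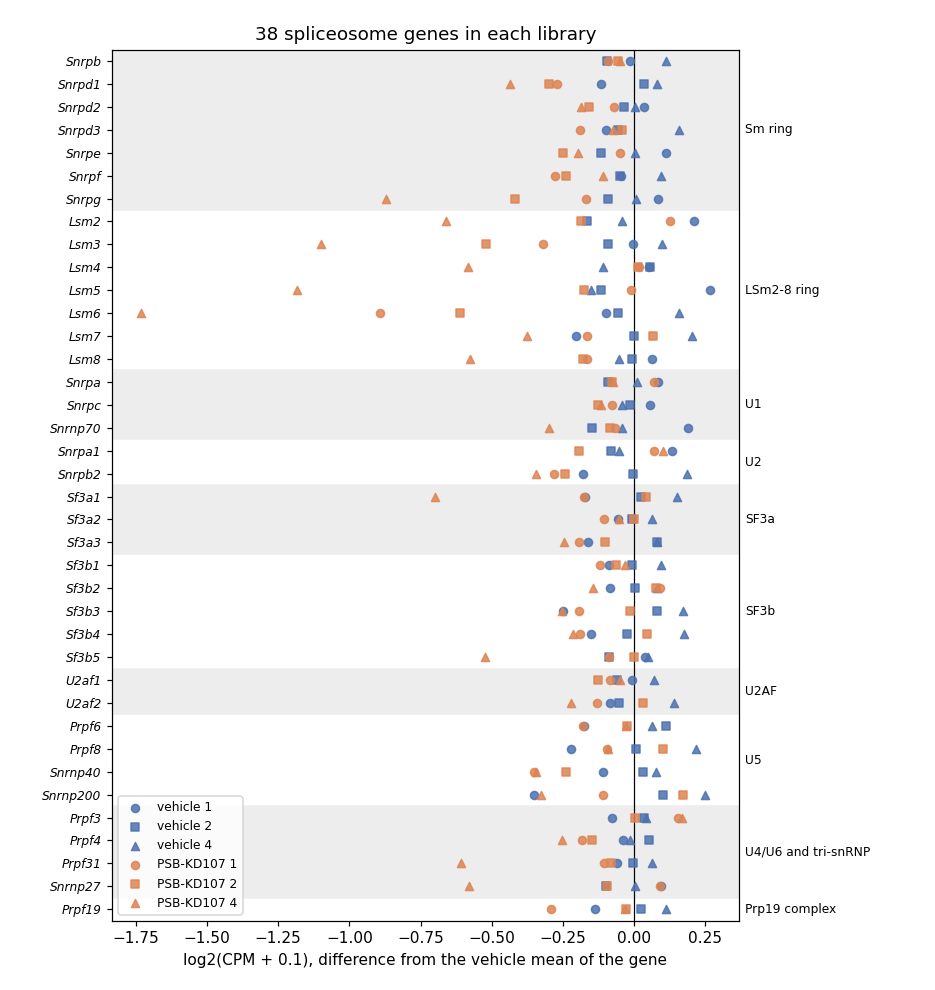
Level of each of the 38 genes in every library, as the difference of log2(CPM + 0.1) from the mean of the gene's 3 vehicle libraries (x axis, log2 units); genes are grouped by particle, blue symbols are vehicle, orange symbols PSB-KD107, and the symbol shape gives the library number. The orange triangles of PSB-KD107 library 4 lie far to the left in the LSm2-8 ring, where it was the lowest library for 7 of 7 genes.

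PSB-KD107 library 4 was the lowest of the 6 libraries for 22 of the 38 genes and for 26.1% of all genes tested. Without this library, 34 of the 38 log2 fold changes were below 0, the median of the 38 was -0.099, and 5 genes (Snrpd1, Snrpf, Lsm3, Lsm6 and Snrnp40) were lower at an unadjusted p under 0.05, where 3.65% of all genes tested were. This library had 37350460 counts, within the range of the others, a share of mitochondrial counts of 0.514% (0.603% to 0.966% elsewhere) and the lowest summed level of the 38 genes.

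The sequences just upstream of the genes were read from the RefSeq promoter table (GRCm38.p6), in which each window runs from 250 bases before to 50 bases after a transcription start. The table holds 38 windows for 31 of the 38 genes. Both strands were searched for CCGGAA, the core of binding sites of ETS factors (TTCCGG on the other strand), for CCAAT, which reads ATTGG on the other strand, for CACGTG, which reads the same on both strands, and for TATAAA, the TATA motif, or TTTATA on the other strand. Matches that overlapped were counted for each motif. CCGGAA was present in 19 of the 38 windows, belonging to 18 of the 31 genes, compared with 14.9% of all 32851 windows of this length and 26.2% of the 13021 windows of genes tested. In the LSm ring 1 of 8 windows held it, that of Lsm5. CCAAT occurred in 15 of the 38 windows (37.4% of all windows and of those of genes tested), CACGTG in 4 (7.15% and 9.94%) and TATAAA in 2 (13.6% and 7.33%). These matches describe the letters only, and no search was made for bound factors. The windows of Snrpb2, Lsm3 and Lsm6, the genes at an unadjusted p under 0.05 whose window is printed, are given 5' to 3' on the strand of the gene, with matches to CCGGAA or CCAAT on either strand in capitals.
Snrpb2, chr2:143062819-143063118, plus strand: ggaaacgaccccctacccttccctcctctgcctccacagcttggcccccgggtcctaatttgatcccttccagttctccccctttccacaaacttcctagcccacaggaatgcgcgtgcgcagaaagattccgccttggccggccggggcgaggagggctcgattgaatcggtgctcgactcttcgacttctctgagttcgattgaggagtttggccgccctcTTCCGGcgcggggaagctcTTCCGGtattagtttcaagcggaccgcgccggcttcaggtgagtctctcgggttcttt
Lsm3, chr6:91515785-91516084, plus strand: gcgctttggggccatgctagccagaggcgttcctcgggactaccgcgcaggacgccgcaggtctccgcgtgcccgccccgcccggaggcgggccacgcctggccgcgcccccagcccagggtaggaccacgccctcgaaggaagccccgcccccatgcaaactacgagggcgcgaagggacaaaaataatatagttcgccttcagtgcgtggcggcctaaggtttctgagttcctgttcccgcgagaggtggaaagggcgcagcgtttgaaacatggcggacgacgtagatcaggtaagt
Lsm6, chr8:78821103-78821402, minus strand: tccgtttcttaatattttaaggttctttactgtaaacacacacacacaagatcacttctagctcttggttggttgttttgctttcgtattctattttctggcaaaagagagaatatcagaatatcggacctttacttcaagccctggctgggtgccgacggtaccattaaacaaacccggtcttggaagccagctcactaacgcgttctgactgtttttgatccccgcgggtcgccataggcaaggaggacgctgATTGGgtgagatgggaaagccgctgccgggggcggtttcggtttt

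The Snrpb2 window holds 2 copies of TTCCGG, both shortly before the start. The Lsm3 window holds neither motif, and that of Lsm6 holds 1 ATTGG, after the start.

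The Sm ring, which is shared by U1, U2, U4 and U5, is built from the products of 7 genes. All 7 log2 fold changes were below 0, against 50.1% of all genes tested. They ran from -0.46 to -0.068 with a median of -0.17. The PSB-KD107 libraries lay entirely below the vehicle libraries for 4 of the 7 (Snrpd1, Snrpd2, Snrpf and Snrpg). This pattern was found in 6.59% of all genes tested. Snrpd1, which pairs with Snrpd2 in the ring, was at 35.2, 39.2 and 40.4 CPM in the vehicle libraries and 31.6, 31.02 and 28.2 CPM in the PSB-KD107 libraries. The groups were separate, and the means were 38.2 ± 2.68 and 30.3 ± 1.83 CPM (SD, n = 3). The log2 fold change was -0.34 (SE 0.11, 95% interval -0.60 to -0.075), with an unadjusted p of 0.0198 in edgeR's test across all genes.

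Snrpd2 was at 63.8, 60.8 and 62.4 CPM in the vehicle libraries and 59.4, 55.9 and 54.7 CPM in the PSB-KD107 libraries, a narrow gap between groups with a log2 fold change of -0.14 (95% interval -0.34 to 0.068). Snrpg, the subunit with the lowest fitted value of the ring, was at 34.3, 30.3 and 32.5 CPM in the vehicle libraries and 28.8, 24.2 and 17.6 CPM in the PSB-KD107 libraries. Its groups did not overlap, but PSB-KD107 library 4 stood well below the other libraries. The log2 fold change was -0.46 (SE 0.19, 95% interval -0.93 to 0.010), and -0.29 without that library. Of the near-identical copies of Snrpg elsewhere in the genome, only Gm8186 was in the count table. It took a number of counts equal to 16.5% of those of Snrpg. The level of Snrpg is uncertain by the reads that could be assigned to either. Snrpf, neighbour of Snrpe in the ring, was at 35.8, 35.7 and 39.5 CPM in the vehicle libraries and 30.5, 31.3 and 34.3 CPM in the PSB-KD107 libraries (log2 fold change -0.21). The annotation places Ccdc38 on the opposite strand over 65.9% of the exons of Snrpf, but Ccdc38 received 13 counts in all 6 libraries together and Snrpf 7680.

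In the other 3 Sm genes the groups overlapped. Snrpb, which codes for SmB and SmB', was at 134, 126 and 146 CPM in the vehicle libraries and 127, 130.1 and 130.5 CPM in the PSB-KD107 libraries, with a log2 fold change of -0.068 (95% interval -0.28 to 0.15). Snrpd3, its partner in the ring, was at 62.05, 63.8 and 74.01 CPM in the vehicle libraries and 58.2, 64.5 and 63.1 CPM in the PSB-KD107 libraries (log2 fold change -0.11, 95% interval -0.36 to 0.15). Snrpe was at 36.4, 31.1 and 33.7 CPM in the vehicle libraries and 32.5, 28.3 and 29.3 CPM in the PSB-KD107 libraries (log2 fold change -0.17, 95% interval -0.45 to 0.11), and copies of it took a number of counts equal to 4.53% of its own. The interval excluded a decrease of 1.5-fold for 5 of the 7 Sm genes, all but Snrpd1 and Snrpg.

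The LSm2-8 ring had the lowest median of the 10 particles, -0.30, and again all 7 log2 fold changes were below 0. Lsm6 accounted for the lowest value of all 38 genes. Lsm6 (ENSMUSG00000031683, chr8:78804865-78821140, minus strand, GRCm38) was at 85.2, 87.6 and 102 CPM in the vehicle libraries and 49.1, 59.7 and 27.3 CPM in the PSB-KD107 libraries. Every PSB-KD107 library lay well below the lowest vehicle library, and library 4 was the lowest of all. The means were 91.4 ± 8.88 and 45.4 ± 16.5 CPM (SD, n = 3), a fitted difference of -50.4%. The log2 fold change was -1.01 (SE 0.28, 95% interval -1.70 to -0.32), with an unadjusted p of 0.0112 and, by edgeR with Benjamini-Hochberg adjustment, an adjusted p of 0.361.

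DESeq2 on the same genes gave Lsm6 a Benjamini-Hochberg adjusted p of 0.0297, and over all the alternative settings of either tool its adjusted p ran from 0.00038 to 1. The call depended on single libraries: DESeq2 lost it without vehicle library 1, 2 or 4 or PSB-KD107 library 1 (adjusted p 0.0649, 0.226, 0.319 and 0.108) and kept it without PSB-KD107 library 2 or 4 (0.00225 and 0.00038). Without PSB-KD107 library 4, edgeR's log2 fold change of Lsm6 was -0.75. In the exact two-sided permutation test, 3 against 3 libraries cannot go below p = 0.1, the value that Lsm6 and the other genes without overlap reached.

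Lsm3 (ENSMUSG00000034192, chr6:91515928-91522625, plus strand) was at 24.8, 23.4 and 26.6 CPM in the vehicle libraries and 19.95, 17.4 and 11.6 CPM in the PSB-KD107 libraries, again with no overlap and with library 4 lowest. Its log2 fold change was -0.61 (SE 0.22, 95% interval -1.14 to -0.085), or -34.7%, with an unadjusted p of 0.0295, and was -0.42 without PSB-KD107 library 4. Lsm8, the subunit that distinguishes the nuclear ring on U6 from the cytoplasmic one, was at 21.7, 20.6 and 19.98 CPM in the vehicle libraries and 18.5, 18.3 and 13.9 CPM in the PSB-KD107 libraries (log2 fold change -0.30, 95% interval -0.68 to 0.080). The groups did not overlap here either.

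The remaining 4 subunits overlapped between groups, and in each of them PSB-KD107 library 4 was below the other 5 libraries. Lsm5 was at 12.96, 9.91 and 9.68 CPM in the vehicle libraries and 10.7, 9.49 and 4.68 CPM in the PSB-KD107 libraries, with a log2 fold change of -0.39 and the widest interval of the 38 (-1.20 to 0.42). Without library 4 its value was -0.11. Lsm2 was at 11.8, 9.11 and 9.93 CPM in the vehicle libraries and 11.2, 8.98 and 6.44 CPM in the PSB-KD107 libraries (log2 fold change -0.21, and -0.031 without library 4). Lsm4, the most abundant of the ring per length, was at 43.04, 43.2 and 38.5 CPM in the vehicle libraries and 42.1, 41.9 and 27.6 CPM in the PSB-KD107 libraries (log2 fold change -0.16), and its sign turned without library 4 (0.013). Lsm7 was at 13.7, 15.8 and 18.2 CPM in the vehicle libraries and 14.1, 16.5 and 12.1 CPM in the PSB-KD107 libraries (log2 fold change -0.16, and -0.056 without library 4).

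**Figure D2:**
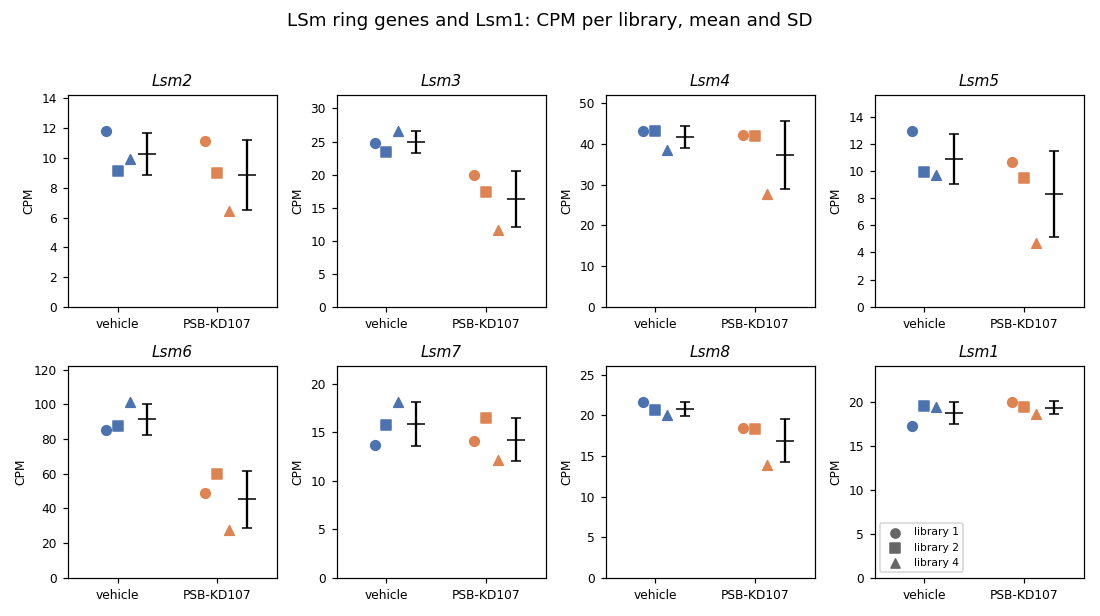
CPM of the 7 LSm2-8 genes and of Lsm1 in each library (y axes in CPM from 0; blue, vehicle; orange, PSB-KD107; circles, squares and triangles, libraries 1, 2 and 4), with the mean and SD of 3 libraries in black. Lsm3, Lsm6 and Lsm8 do not overlap between groups, the orange triangle is the lowest point for all 7 ring genes, and Lsm1 lies between 17.3 and 20.0 CPM in all 6 libraries.

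As a mean over the 7 genes, the log2 level relative to the vehicle mean was 0.041, -0.055 and 0.014 in vehicle libraries 1, 2 and 4, and -0.20, -0.23 and -0.89 in PSB-KD107 libraries 1, 2 and 4. The groups were separate in this mean, with library 4 far below its group. The summed level was 213, 209.6 and 224 CPM and 165, 172 and 104 CPM, respectively. Without library 4 the median log2 fold change of the ring was -0.11 in place of -0.30, and 6 of the 7 values remained below 0. Lsm1, which replaces Lsm8 in the cytoplasmic ring, was at 17.3, 19.5 and 19.4 CPM in the vehicle libraries and 20.01, 19.4 and 18.6 CPM in the PSB-KD107 libraries, with a log2 fold change of 0.047 (95% interval -0.24 to 0.34). In Lsm1, library 4 was not the lowest of the 6.

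Among the 3 proteins particular to U1, which recognise the 5' splice site with the U1 RNA, all log2 fold changes were below 0 (median -0.11) and none reached an unadjusted p of 0.05. Snrpc, the zinc finger protein C of U1, was at 44.6, 42.5 and 41.7 CPM in the vehicle libraries and 40.6, 39.3 and 39.6 CPM in the PSB-KD107 libraries, without overlap but with a difference of -7.19% (log2 fold change -0.11, 95% interval -0.32 to 0.10). Snrnp70, the U1-70K protein, was at 214, 169.5 and 182 CPM in the vehicle libraries and 179, 177 and 153 CPM in the PSB-KD107 libraries (log2 fold change -0.15, 95% interval -0.46 to 0.15). Vehicle library 1 was the highest for Snrnp70, and the groups overlapped. Snrpa, the A protein of U1, was at 60.7, 53.8 and 57.7 CPM in the vehicle libraries and 60.2, 54.3 and 54.5 CPM in the PSB-KD107 libraries, with a log2 fold change of -0.027 (95% interval -0.26 to 0.21). All 3 intervals excluded a decrease of 1.5-fold.

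U2 and the factors that place it on the branch site contributed 12 genes, of which 11 had a log2 fold change below 0, with a median of -0.11. Snrpb2, the B'' protein of U2 (ENSMUSG00000008333, chr2:143063039-143072853, plus strand), was the only one without overlap, at 37.7, 42.7 and 48.6 CPM in the vehicle libraries and 35.2, 36.1 and 33.7 CPM in the PSB-KD107 libraries. The vehicle libraries spread more widely than the PSB-KD107 libraries, with means of 43.03 ± 5.46 and 34.98 ± 1.23 CPM (SD, n = 3). The log2 fold change was -0.30 (SE 0.12, 95% interval -0.60 to -0.0014), with an unadjusted p of 0.0492. Snrpa1, the A' protein of U2 that binds with Snrpb2, was at 33.4, 28.7 and 29.3 CPM in the vehicle libraries and 31.9, 26.6 and 32.6 CPM in the PSB-KD107 libraries. Its log2 fold change was -0.0054 (95% interval -0.32 to 0.31), and whether the members of this pair differed from each other was not tested.

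The SF3a complex joins U2 before it binds the branch site. Sf3a1 was at 139.7, 159.8 and 175 CPM in the vehicle libraries and 139, 162 and 96.8 CPM in the PSB-KD107 libraries (log2 fold change -0.25, 95% interval -0.75 to 0.24), with libraries 1 and 2 of PSB-KD107 in or at the edge of the vehicle range and library 4 far below. Without library 4 its log2 fold change was -0.071. Sf3a2 was at 55.5, 57.5 and 60.4 CPM in the vehicle libraries and 53.7, 57.8 and 55.6 CPM in the PSB-KD107 libraries (log2 fold change -0.054, 95% interval -0.27 to 0.16). The Plekhj1 gene on the opposite strand covers 16.1% of the Sf3a2 exons and had 7979 counts against 12656, so without a stated strand setting some counts of either are uncertain. Sf3a3 was at 53.1, 62.98 and 62.97 CPM in the vehicle libraries and 51.97, 55.4 and 50.1 CPM in the PSB-KD107 libraries (log2 fold change -0.19, 95% interval -0.45 to 0.077).

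SF3b holds the branch site adenosine, and Sf3b1 is its largest protein and a frequent site of mutation in blood cancers. Sf3b1 was at 287, 304 and 326 CPM in the vehicle libraries and 281, 292 and 298 CPM in the PSB-KD107 libraries, with a log2 fold change of -0.073 (95% interval -0.30 to 0.15). Sf3b2, which with Prpf3 had a value above 0, was at 249.8, 265 and 280.4 CPM in the vehicle libraries and 282, 279 and 239.7 CPM in the PSB-KD107 libraries (log2 fold change 0.0094, 95% interval -0.25 to 0.27). Its sign turned with RLE size factors (-0.0048), in DESeq2 (-0.0047) and with a correction for GC content (-0.035). The median over all genes was -0.015, -0.015 and -0.044 in these settings. Sf3b3 was at 203, 256 and 272 CPM in the vehicle libraries and 212, 239 and 203 CPM in the PSB-KD107 libraries (log2 fold change -0.16). Of the smaller subunits, Sf3b4 was at 46.4, 50.7 and 58.3 CPM in the vehicle libraries and 45.2, 53.3 and 44.5 CPM in the PSB-KD107 libraries (log2 fold change -0.12). Sf3b5 was at 31.5, 28.9 and 31.7 CPM in the vehicle libraries and 28.9, 30.6 and 21.3 CPM in the PSB-KD107 libraries (log2 fold change -0.19), with library 4 the lowest. The groups overlapped for all 5 of these SF3b genes, and for all 5 the interval excluded a decrease of 1.5-fold. Sf3b6 and Phf5a, also SF3b proteins, were counted among the other genes of the pathway described below. The log2 fold change was 0.0068 for Sf3b6 (95% interval -0.24 to 0.26) and -0.028 for Phf5a (95% interval -0.40 to 0.35). The groups overlapped for both.

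U2AF is the heterodimer that reads the polypyrimidine tract and the AG of the 3' splice site. Its large subunit U2af2 was at 161, 165 and 188 CPM in the vehicle libraries and 156, 175 and 146 CPM in the PSB-KD107 libraries (log2 fold change -0.11, 95% interval -0.38 to 0.16). Its small subunit U2af1 was at 80.03, 77.04 and 84.3 CPM in the vehicle libraries and 75.8, 73.7 and 77.7 CPM in the PSB-KD107 libraries (log2 fold change -0.087, 95% interval -0.29 to 0.11). The groups overlapped for both.

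Of the 4 U5 proteins among the 38 genes, the 3 large ones overlapped between groups and Snrnp40 did not. Eftud2 and Txnl4a, also U5 proteins, were counted among the other genes of the pathway described below. The log2 fold change was -0.073 for Eftud2 and 0.26 for Txnl4a, whose PSB-KD107 libraries all lay above the vehicle libraries. Snrnp40, a WD repeat protein of U5 (ENSMUSG00000074088, chr4:130360132-130390026, plus strand), was at 33.3, 36.7 and 37.8 CPM in the vehicle libraries and 28.1, 30.4 and 28.2 CPM in the PSB-KD107 libraries. The means were 35.9 ± 2.38 and 28.9 ± 1.30 CPM (SD, n = 3), and the log2 fold change was -0.31 (SE 0.10, 95% interval -0.57 to -0.061), with an unadjusted p of 0.0226. Library 4 was not the lowest for this gene, and without it the value was -0.30.

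Prpf8, the scaffold that cradles the catalytic RNA core, was at 297, 347 and 402 CPM in the vehicle libraries and 324, 372 and 325 CPM in the PSB-KD107 libraries, with a log2 fold change of -0.036 (95% interval -0.38 to 0.30). Snrnp200, the helicase that unwinds U4 from U6, was at 150.1, 205 and 228 CPM in the vehicle libraries and 177, 216 and 153 CPM in the PSB-KD107 libraries (log2 fold change -0.096, 95% interval -0.58 to 0.39). For both genes vehicle library 1 was the lowest of the 6, and their signs turned when single libraries were left out. Prpf6, which bridges U5 and U4/U6, was at 115, 141 and 136 CPM in the vehicle libraries and 115, 128 and 128 CPM in the PSB-KD107 libraries (log2 fold change -0.082, 95% interval -0.35 to 0.19).

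The U4/U6 and tri-snRNP proteins had a median log2 fold change of -0.18 over 4 genes, which was -0.048 without PSB-KD107 library 4. Prpf4 and Prpf3 form a complex on U4/U6. Prpf4 was at 28.9, 30.7 and 29.3 CPM in the vehicle libraries and 26.1, 26.7 and 24.8 CPM in the PSB-KD107 libraries, without overlap (log2 fold change -0.20, 95% interval -0.43 to 0.044). Prpf3 was at 31.6, 34.2 and 34.4 CPM in the vehicle libraries and 37.2, 33.5 and 37.5 CPM in the PSB-KD107 libraries and had the highest log2 fold change of the 38 (log2 fold change 0.11, 95% interval -0.14 to 0.36). Prpf31, which binds the U4 RNA and is mutated in inherited retinal degeneration, was at 55.9, 58.03 and 60.9 CPM in the vehicle libraries and 54.1, 55.04 and 38.1 CPM in the PSB-KD107 libraries. The groups did not overlap, yet libraries 1 and 2 of PSB-KD107 were close to the vehicle range, and the log2 fold change was -0.25 with library 4 and -0.095 without it. Snrnp27, a tri-snRNP protein, was at 91.4, 80.02 and 85.8 CPM in the vehicle libraries and 91.2, 80.1 and 57.2 CPM in the PSB-KD107 libraries (log2 fold change -0.17, and -0.0017 without library 4). Prpf19, the ubiquitin ligase that names the Prp19 complex, was at 354, 396 and 421 CPM in the vehicle libraries and 318, 382 and 381 CPM in the PSB-KD107 libraries (log2 fold change -0.11, 95% interval -0.41 to 0.18).

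**Figure D3:**
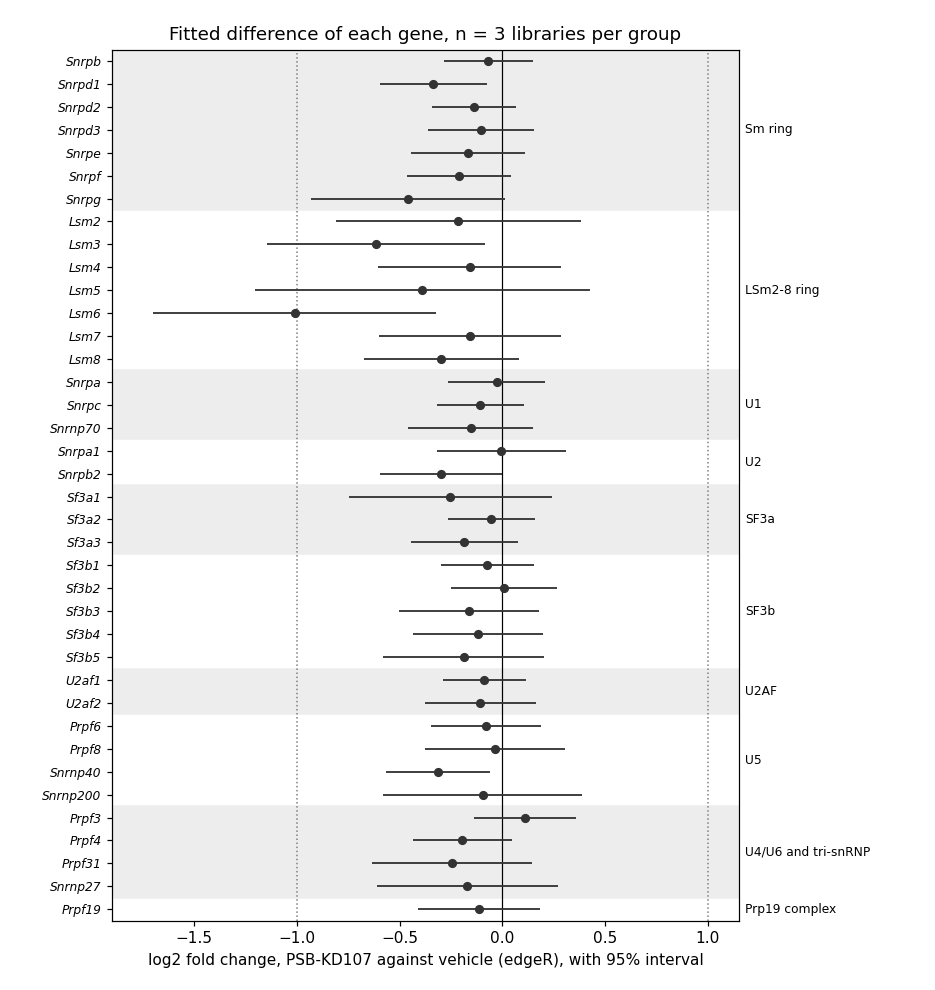
Fitted log2 fold change of PSB-KD107 against vehicle for each of the 38 genes (points, edgeR) with its 95% interval (lines), grouped by particle; the solid line marks 0 and the dotted lines a 2-fold difference in either direction. The points of 36 genes lie left of 0, and the intervals of Lsm3, Lsm5 and Lsm6 cross the dotted line on the left.

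Set side by side, the medians of the particles, over the 38 genes only, were -0.30 for LSm2-8, -0.19 for SF3a, -0.18 for U4/U6 and the tri-snRNP, -0.17 for Sm, -0.15 for U2, -0.12 for SF3b, -0.11 for U1, -0.097 for U2AF and -0.089 for U5, and Prpf19 was at -0.11. Some subunits, such as Sf3b6 and Phf5a of SF3b and Eftud2 and Txnl4a of U5 named above, are outside these medians. Without PSB-KD107 library 4 the order was another one, with U2 at -0.17, Sm at -0.15 and LSm2-8 at -0.11. The difference between particles was not tested. The interval excluded a decrease of 1.5-fold for 0 of the 7 LSm genes and for 25 of the other 31. Across the 38 genes, the log2 fold change had a Spearman correlation of 0.45 with the vehicle CPM and of 0.29 with the exon length, as a description over genes that share libraries.

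Levels were compared between genes only per length, as FPKM from the counts and the union of annotated exons, in the vehicle libraries. The median of the 38 was 22.03 FPKM. On this length Snrpb had the highest level, at 68.5 ± 5.06 FPKM (SD, n = 3), beyond the spread of the next gene, Prpf19, at 53.6 ± 4.61. Prpf19, Prpf8 (46.8 ± 7.04), Snrnp27 (46.7 ± 3.09), Snrpf (42.99 ± 2.52), U2af2, Lsm4 and Sf3b2 (38.9 ± 2.24) followed with no gap between neighbours larger than their spread. The 5 lowest genes were Snrpc (6.58 ± 0.232), Prpf3 (5.90 ± 0.272), Prpf4 (5.22 ± 0.166), Lsm8 (4.94 ± 0.206) and Lsm2 (3.26 ± 0.445).

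Proteins that occupy a ring once each were coded by RNAs of unequal level. In the Sm ring, Snrpb was followed by Snrpf at 42.99 ± 2.52 FPKM, and the other 5 genes lay between 18.6 FPKM (Snrpd1) and 24.6 FPKM (Snrpe). In the LSm ring the order was Lsm4 (40.1 ± 2.58), Lsm6 (22.4 ± 2.18), Lsm5 (13.7 ± 2.31), Lsm7 (9.92 ± 1.40), Lsm3 (9.07 ± 0.591), Lsm8 and Lsm2, and Lsm7 and Lsm3 did not differ beyond their spread. With PSB-KD107, Lsm6 was at 11.1 ± 4.04 FPKM, close to Lsm5 at 10.5 ± 4.01. These levels and their order rest on the length used. With the longest transcript in place of the exon union, the median of the 38 was 31.4 FPKM, and Snrnp27 (85.3 FPKM) and Sf3b2 (82.3 FPKM) were above Snrpb (79.2 FPKM). In the Sm ring Snrpe (50.4 FPKM), Snrpd1 (44.6 FPKM) and Snrpd2 (43.9 FPKM) were then above Snrpf (42.99 FPKM), and in the LSm ring Lsm2 (6.49 FPKM) was above Lsm8 (6.28 FPKM).

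**Figure D4:**
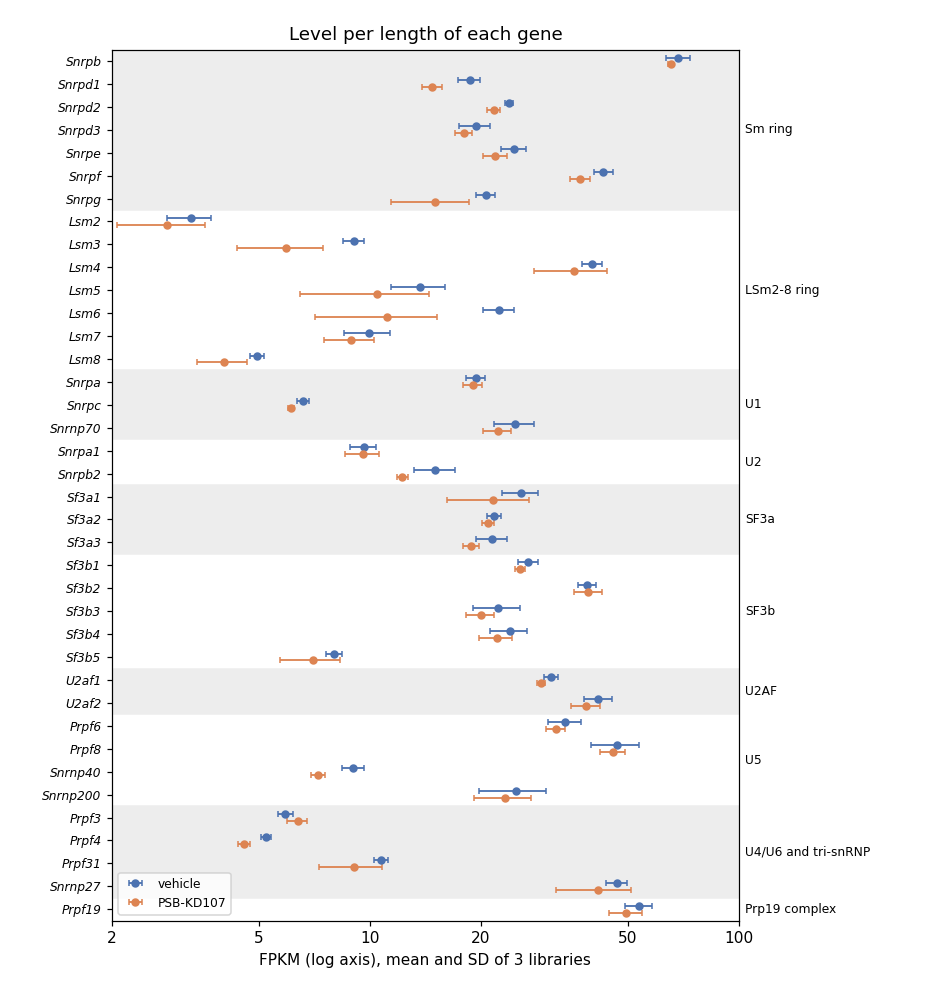
Level per length of each of the 38 genes in FPKM (x axis, logarithmic), as the mean and SD of the 3 vehicle (blue) and the 3 PSB-KD107 libraries (orange), grouped by particle. Vehicle means run from 3.26 FPKM for Lsm2 to 68.5 FPKM for Snrpb, and the LSm2-8 ring spans from Lsm2 to 40.1 FPKM for Lsm4.

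The remainder of the splicing pathway was described with 87 other genes in 5 lists, all of which were tested. Their log2 fold change was below 0 in 60 and above 0 in 27 (median -0.061), 4 were lower and 0 higher at an unadjusted p under 0.05, and of all genes tested 50.1% were below 0, 2.93% lower and 6.47% higher at that threshold. In these lists 0 genes passed the adjusted threshold in edgeR or DESeq2. At that threshold edgeR called 0 of the 14165 genes tested. DESeq2 called 0.93% of the genes that it adjusted lower and 2.48% higher. Of 25 further U1, U2, U5 and tri-snRNP proteins, 20 had a value below 0 (median -0.051), and 2 were lower at an unadjusted p under 0.05. These were Ppih, the cyclophilin that binds Prpf4 and Prpf3, at 8.95, 8.65 and 8.65 CPM in the vehicle libraries and 7.13, 5.77 and 4.32 CPM in the PSB-KD107 libraries (log2 fold change -0.61, SE 0.23), and Ddx39b, a helicase that acts with U2AF and in mRNA export, at 214, 220.2 and 251 CPM in the vehicle libraries and 189, 198 and 163 CPM in the PSB-KD107 libraries (log2 fold change -0.31, SE 0.12). The groups did not overlap for either.

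Of 24 genes of the Prp19 complex and the activated spliceosome, 18 had a value below 0 (median -0.11), and Aqr, a helicase that binds the intron, was lower at an unadjusted p under 0.05, at 175, 221 and 239.7 CPM in the vehicle libraries and 131, 174 and 153 CPM in the PSB-KD107 libraries (log2 fold change -0.47, SE 0.16). In snRNP assembly and import, 15 of 20 were below 0 (median -0.075), and Larp7, the La-related protein that binds the 7SK RNA and U6, was lower at that threshold, at 38.5, 36.9 and 39.3 CPM in the vehicle libraries and 32.1, 32.7 and 29.5 CPM in the PSB-KD107 libraries (log2 fold change -0.28, SE 0.097). The 9 genes of the minor spliceosome had 6 values above 0 and 3 below (median 0.11), none of them at an unadjusted p under 0.05, and the difference between lists was not tested. Zmat5, a U11/U12 protein, was at 14.2, 13.7 and 14.1 CPM in the vehicle libraries and 14.8, 15.9 and 17.8 CPM in the PSB-KD107 libraries (log2 fold change 0.21), and Pdcd7, from the same particle, at 19.6, 22.9 and 23.9 CPM in the vehicle libraries and 15.9, 19.6 and 21.7 CPM in the PSB-KD107 libraries (log2 fold change -0.22). Of 9 paralogs of the Sm, LSm and U2AF proteins, 5 were above 0 (median 0.047), among them the U7 ring genes Lsm10, at 10.1, 9.45 and 10.98 CPM in the vehicle libraries and 12.2, 13.5 and 11.8 CPM in the PSB-KD107 libraries (log2 fold change 0.30), and Lsm11, at 10.5, 12.03 and 13.4 CPM in the vehicle libraries and 9.78, 12.03 and 23.4 CPM in the PSB-KD107 libraries (log2 fold change 0.33). None of these 4 genes reached an unadjusted p of 0.05.

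**Figure D5:**
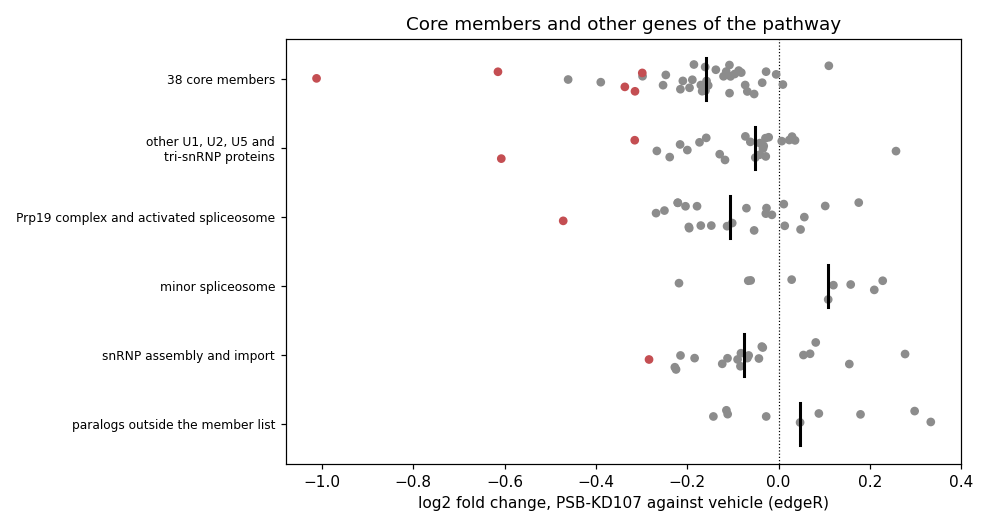
Log2 fold change of PSB-KD107 against vehicle (x axis, edgeR) for the 38 core genes and for the 87 other genes of the pathway in 5 lists; each point is a gene, red points have an unadjusted p under 0.05, vertical offsets only separate the points, and the bars are the medians. The median is -0.16 for the core genes, -0.11 for the Prp19 complex and activated spliceosome and 0.11 for the minor spliceosome.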

How the data were processed

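Polyadenylated RNA of 3 vehicle and 3 PSB-KD107 libraries was sequenced in paired-end mode with a directional kit. Reads were aligned by the authors with STAR to mm10, and the deposited values are raw counts per gene, with no normalization, the counting program, annotation and strand setting being not given in the sources used here. Names, exons and coordinates came from GENCODE M21 (GRCm38). Counts were analysed in R 4.3.3 with edgeR 4.0.16: default filterByExpr, TMM factors, quasi-likelihood test over 14165 genes, Benjamini-Hochberg adjustment, threshold 0.05. The SE is the log2 fold change over the root of F. CPM and FPKM are TMM-normalised. DESeq2 1.42.0, limma 3.58.1 (voom), other factors and filters, a GC correction (loess, span 0.5), a replicate block and each library left out were alternatives, and DESeq2 on all genes or without each library was added after seeing the data. Copies were transcripts with at least 95% identity. All 38 genes were named. Of the other lists, genes at an unadjusted p under 0.05 were named, otherwise the 2 with the smallest p. Lsm1, Sf3b6, Phf5a, Eftud2 and Txnl4a were named in addition, as parts of particles among the 38. Members and lists were chosen with earlier results of these data known. The scripts were tested on simulated data. Whether the numbers pair the libraries was checked by the correlation of deviations from the group means, which was 0.63, 0.52 and -0.13 for numbers 1, 2 and 4. For libraries of unlike number it ran up to 0.64 (vehicle library 4 with PSB-KD107 library 2). Deviations from a mean of 3 libraries depend on each other, so this check cannot exclude a pairing by mouse. No block was used in the main test. Python 3.11.15, pandas 2.3.3 and matplotlib 3.10.9 drew the figures.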

Additional observations from a re-analysis of the deposited data

How the results depend on the processing

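The median of the 38 genes stayed below 0 in every setting tried, and so did that of each particle except U5, at 0.020 with and 0.016 without a replicate block on 4 libraries. With RLE size factors the sign of Sf3b2 turned (-0.0048), as in DESeq2 (-0.0047), with the GC correction (-0.035) and with GC correction and a replicate block on 6 libraries (-0.034). The median over all genes was -0.015, -0.015, -0.044 and -0.049 in these settings, so Sf3b2 lay above it in each. DESeq2 called 1 of the 38 genes, also on every gene with a count (1), and 0 to 2 with each library left out: Lsm6 without PSB-KD107 library 2 or 4, and Snrpd1 and Snrnp40 without vehicle library 1, settings in which it called 815, 714 and 648 of all genes (184 to 815 over the 6). In DESeq2, 1 of the other pathway genes was higher at an unadjusted p under 0.05. A replicate block could be fitted by the sample records' numbers for 4 libraries (1 and 2 of each group). With 1 residual degree of freedom, it called 3 of the 38 (Snrpg, Lsm3 and Lsm6) and 2456 of 14400 genes in all. Of the 87 other pathway genes, 11 were lower and 4 higher at an unadjusted p under 0.05, where 15.1% of all genes tested were lower. The medians of SF3a and U4/U6 were -0.022 and -0.032, and Lsm7 (0.051), Sf3a1 (0.0052), Sf3b4 (0.016), U2af2 (0.018), Prpf8 (0.11) and Snrnp200 (0.15) turned sign. The same 4 libraries without the block gave 0 calls. At an unadjusted p under 0.05, 1 of the 38 was lower, and 0 other pathway genes were lower and 1 higher, where 2.17% of all genes tested were lower. The medians were -0.021 (SF3a), -0.026 (U2AF) and -0.032 (U4/U6), and the same signs turned (0.052, 0.0060, 0.019, 0.021, 0.11 and 0.14). Whether the numbers pair all the libraries is not known, and a block over all 6 called 0 genes. With GC correction, 2 of the 38 were lower at an unadjusted p under 0.05 when the block on 6 libraries was added, where 4.64% of all genes tested were. With this correction the median of the other pathway genes was -0.11 without and -0.10 with the block, beside -0.044 and -0.049 over all genes. With each library left out, edgeR called 0 of the 38 and 0 of all genes tested. At an unadjusted p under 0.05, 1 to 5 were lower, where 1.33% to 4.89% of all genes tested were. Only 1 was lower without vehicle library 2 or 4 (1.33% and 1.36% of all genes), and 3 without PSB-KD107 library 2 (4.89%). The median of the 38 ran from -0.21 to -0.099 (the latter without PSB-KD107 library 4). Those of the particles ran from -0.23 to -0.14 (Sm), -0.19 to -0.12 (U2), -0.14 to -0.060 (U1, the latter without vehicle library 1) and -0.14 to -0.045 (U2AF, the latter without vehicle library 4). They ran from -0.43 to -0.11 (LSm), -0.27 to -0.071 (SF3a) and -0.28 to -0.048 (U4/U6), each latter value without PSB-KD107 library 4. SF3b ran from -0.21 without PSB-KD107 library 2 to -0.028 without vehicle library 4. U5 ran from -0.22 without vehicle library 1 to -0.010 without vehicle library 4. Prpf19 ran from -0.19 without vehicle library 1 to -0.047 without PSB-KD107 library 1. Of the 87 other pathway genes, 0 to 6 were lower and 0 to 2 higher at an unadjusted p under 0.05, and their median ran from -0.10 to -0.036. Of all genes tested, 1.33% to 4.89% were lower in these fits. The share of all genes that were higher was counted in the main fit only, where it was 6.47%. Signs turned for Lsm4 (-0.27 to 0.013), Snrpa (-0.093 to 0.0088), Snrpa1 (-0.060 to 0.075), Sf3b2 (-0.047 to 0.080), Prpf8 (-0.15 to 0.077) and Snrnp200 (-0.26 to 0.032). With the longest transcript as length, the median level was 31.4 FPKM. The causes were not tested.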

Other observations

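Near-identical copies took counts equal to 9.17% of those of Lsm5 and 0.387% of those of Lsm6. For the other genes with copies, apart from Snrpg and Snrpe, the share was at most 1.64%, the value of Snrpc. These shares cover only copies in the count table. Some copies of Snrpg, Lsm6, Snrpd2, U2af1 and U2af2 were not in it, and their reads are not part of the shares. BC024978 on the opposite strand covers 11.03% of the exons of Snrpa, with 2671 counts against 12819, and Gm15927 covers 18.1% of those of Prpf31, with 70 counts against 12006.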
